A study of Mus musculus with 18 samples.

Results

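Semaphorins and their receptors, the plexins and neuropilins, were followed in inguinal fat, a subcutaneous white fat depot, of mice with a growing tumour. The members were chosen by gene symbol, as every semaphorin of the named vertebrate classes, every plexin of types A to D and both neuropilins, which gave 31 of the 21899 genes in the tables. They comprise 20 semaphorins, 9 plexins and 2 neuropilins. The tumour came from LLC cells (Lewis lung carcinoma, a line of murine origin) placed beneath the skin of male C57BL/6J mice, and controls were given PBS (phosphate-buffered saline) instead. Fat was taken at day 7, labelled pre-cachexia, or at day 21, labelled cachexia, a state in which fat and muscle waste away. At each of these days there were 4 PBS and 5 LLC libraries, so 18 in all. All 4 groups share the strain and sex, and the labels name no engineered allele. The labels only number the samples. P-values therefore reflect how far these samples spread, and some of that spread may be technical.

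Semaphorins are guidance signals first known from growing axons, and they also steer blood vessels, immune cells and bone. Class 3 semaphorins are secreted and mostly bind a neuropilin, which holds the ligand while a plexin carries the signal into the cell. The other classes are anchored in the membrane and mostly bind plexins directly. The inner part of a plexin switches off small GTPases of the R-Ras and Rap type and so loosens adhesion and the cytoskeleton, and neuropilins also serve as co-receptors for vascular endothelial growth factors (VEGF). In fat, Sema3c has been described as a signal released by fat cells, and Sema3e with its receptor plexin D1 has been studied in the attraction of macrophages to visceral fat.

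Levels of a gene in different samples are given as CPM, counts scaled to a common library size over all 18 libraries with the TMM method. Levels of different genes are compared as TPM, the deposited transcript abundances, which are corrected for transcript length. Errors of levels are SD over the libraries of a group, and errors of log2 fold changes are approximate SE.

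Library totals ran from 14566155 to 18969387 counts, with 15516 to 16232 genes detected, and each of the 12 mature adipocyte markers was detected in every library. Summed, those 12 ran from 25115 to 33067 CPM in day 7 PBS and from 25064.5 to 31958 CPM in day 7 LLC. In day 21 PBS they ran from 34933 to 43026 CPM, above every day 7 library. In day 21 LLC they ran from 20443 CPM (library 1) to 59292 CPM (library 4). Several libraries stood apart in markers of the other cells in fat. In day 21 PBS libraries 1 to 4 the summed level of 11 macrophage markers was 445, 441, 285 and 2608 CPM, against 1721 to 2857 CPM in day 7 PBS. The sum of 13 markers of adipose progenitors and fibroblasts was 3916, 4009, 2599 and 14378 CPM in the same libraries, and that of 6 markers of lymphatic endothelium 18.4, 31.9, 19.2 and 195 CPM. PBS library 4 of day 21 was thus near the day 7 levels, and PBS libraries 1 to 3 were far below them. Progenitor markers summed to 5754 CPM in day 7 LLC library 5 and to 13221 CPM in day 21 LLC library 1, whereas the other day 21 LLC libraries held 3322 to 5609 CPM. B cell markers summed to 1416 CPM in day 21 LLC library 3 and to at most 13.1 CPM elsewhere. Skeletal muscle markers were above 600 CPM in 1 library of each day 7 group and in 2 libraries of each day 21 group. All 11 macrophage markers were detected in every library, and of the lymphatic markers Prox1 was at 0 in 2 libraries, Mmrn1 in 1 and Ccl21a in 4. In bulk tissue, fewer cells of a type and less RNA per cell cannot be told apart.

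Of the 31 members, 29 reached a mean of at least 1 TPM in some group. Measured per length, Nrp1 was the member with the highest mean in each of the 4 groups, at 81.3 ± 13.2 TPM in day 7 PBS, 83.3 ± 7.61 TPM in day 7 LLC, 67.0 ± 6.90 TPM in day 21 PBS and 70.6 ± 19.8 TPM in day 21 LLC. Nrp1 encodes the neuropilin of most class 3 ligands and of VEGF-A. Its TPM in day 21 PBS (57.0 to 72.4) lay below that in day 7 LLC (75.8 to 93.4), while all other pairs of groups overlapped. In CPM, the scale used between samples, these groups overlapped too, at 127.6 to 155.9 in day 21 PBS and 139.6 to 188.2 in day 7 LLC. In day 7 PBS, Nrp1 was followed in TPM by the membrane ligand Sema4a (48.8 ± 8.49 TPM), the receptor Plxnd1 (48.1 ± 7.31 TPM), Sema3c (44.0 ± 7.50 TPM) and Sema3b (34.9 ± 6.52 TPM). The SD ranges of these 4 overlapped from each to the next, and that of Nrp1 lay above them. The next levels in that group were 28.2 ± 6.83 TPM for Plxna1, 28.1 ± 7.63 TPM for Plxnb2, 20.8 ± 1.93 TPM for the lipid-anchored ligand Sema7a, 20.6 ± 2.97 TPM for Nrp2 and 20.4 ± 2.07 TPM for Sema3g. The SD ranges of neighbours among those 5 overlapped.

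Members with a mean under 1 TPM in every group were Sema5b and Sema4f, 2 of the 31. Sema5b had 2 to 28 counts per library and Sema4f 0 to 45 counts. Sema4f did not pass the filter on low counts in the within-day comparisons, so 30 members were tested there and 31 in the fit of all libraries. By family, the 20 semaphorins summed to 269 ± 31.3 TPM in day 7 PBS, 261 ± 35.9 TPM in day 7 LLC, 165 ± 43.9 TPM in day 21 PBS and 250.3 ± 68.3 TPM in day 21 LLC. The 9 plexins summed to 123 ± 24.0, 117 ± 14.8, 71.2 ± 15.2 and 94.4 ± 48.1 TPM in the same order of groups. The day 21 PBS group had the lowest mean for both families. Its semaphorin sums, 135 to 229 TPM, lay below those of day 7 PBS (235 to 310.3 TPM) and overlapped those of both LLC groups. Sums of TPM carry no TMM scaling, and no test was made on them.

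**Figure D1:**
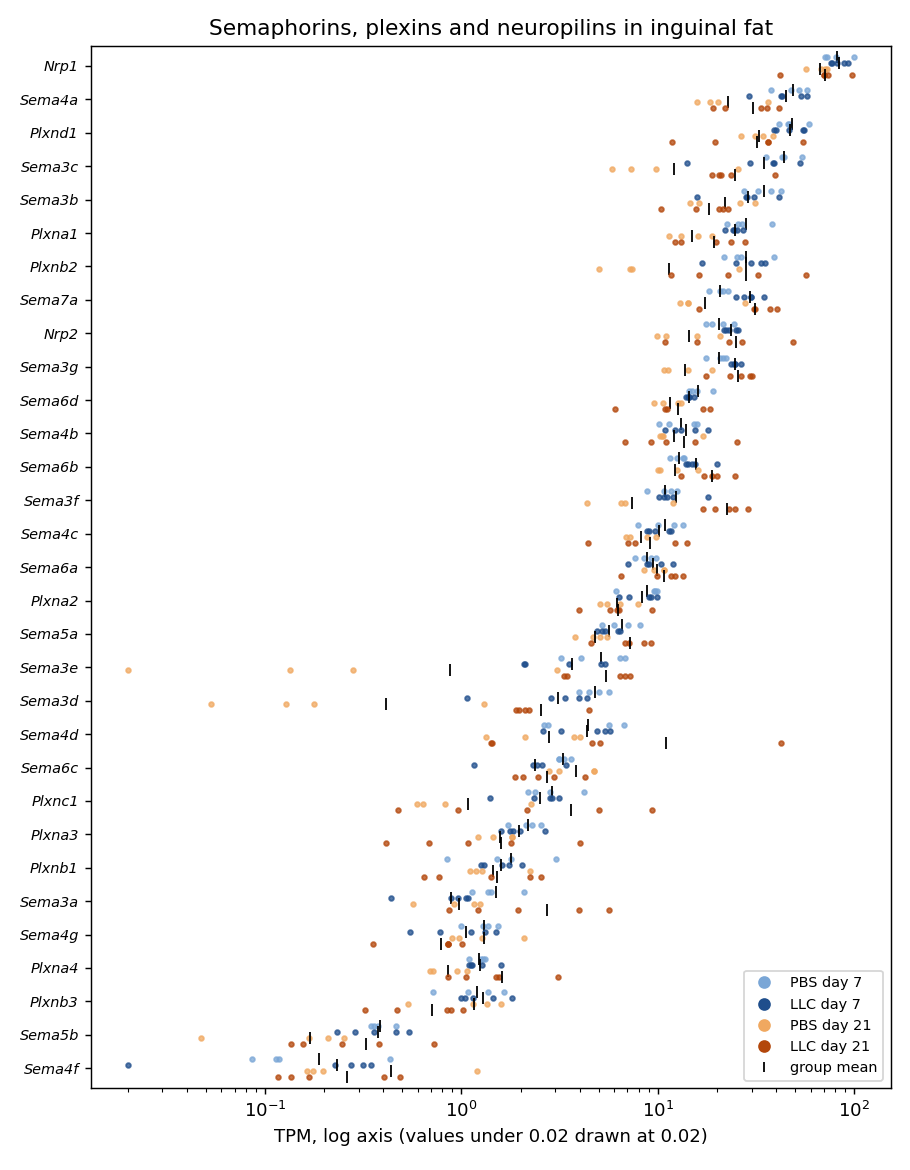
Level of each of the 31 members in every library, as TPM on a log axis, with members ordered by their mean in day 7 PBS. Points are libraries, coloured by group, and black ticks are group means; Nrp1 is at the top in all 4 groups, and the low day 21 PBS points of Sema3d and Sema3e lie far left of the other groups.

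The class 3 ligands include 4 of the 6 members that passed edgeR's test with all libraries in the fits used below, of the 9 libraries of a day for LLC against PBS and of all 18 between days. Other fits and tools called further members. On GRCm38, Sema3d (ENSMUSG00000040254, chr5:12383385-12588948, plus strand), Sema3a (ENSMUSG00000028883, chr5:13125414-13602565, plus strand), Sema3e (ENSMUSG00000063531, chr5:14025276-14256689, plus strand) and Sema3c (ENSMUSG00000028780, chr5:17574281-17730268, plus strand) lie in that order along chromosome 5. The gaps between them are 536.5 kb, 422.7 kb and 3.32 Mb. Sema3b (ENSMUSG00000057969, chr9:107597674-107609229, minus strand) and Sema3f (ENSMUSG00000034684, chr9:107681500-107710475, minus strand) lie 72.3 kb apart on chromosome 9, with Gnai2, Slc38a3 and Gnat1 between them. Sema3g (ENSMUSG00000021904, chr14:31217860-31230352, plus strand) is on its own on chromosome 14.

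Promoter sequences were available for 26 of the 31 members, in 37 windows of 300 bases (250 before to 50 after the start; RefSeq, GRCm38.p6). Those of Sema3c, Sema3d and Sema3a, the class 3 genes on chromosome 5 among these 6, are shown because they differ in base composition. Sema3e, on the same chromosome, passed only in some of the other fits, and its promoter is not shown. They were chosen after the values were seen. Capitals mark a GC box, GGGCGG on either strand, in Sema3c and the E-box CACCTG on either strand in Sema3d. No other motif searched lies in these 3 windows.

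Sema3c (chr5:17574566-17574865, plus strand): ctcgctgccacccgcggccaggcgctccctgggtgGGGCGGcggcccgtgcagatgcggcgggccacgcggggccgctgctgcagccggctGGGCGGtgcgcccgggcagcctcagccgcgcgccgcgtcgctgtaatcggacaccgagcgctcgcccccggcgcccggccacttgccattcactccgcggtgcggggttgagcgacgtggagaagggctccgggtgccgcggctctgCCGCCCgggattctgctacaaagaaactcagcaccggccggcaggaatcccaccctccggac

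Sema3d (chr5:12382916-12383215, plus strand): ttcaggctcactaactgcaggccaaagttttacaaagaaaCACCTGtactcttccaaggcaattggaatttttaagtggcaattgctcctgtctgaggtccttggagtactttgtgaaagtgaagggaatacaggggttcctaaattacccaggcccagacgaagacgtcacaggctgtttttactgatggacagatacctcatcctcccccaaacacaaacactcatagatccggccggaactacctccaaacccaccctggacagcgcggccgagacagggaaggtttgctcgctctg

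Sema3a (chr5:13396534-13396833, plus strand): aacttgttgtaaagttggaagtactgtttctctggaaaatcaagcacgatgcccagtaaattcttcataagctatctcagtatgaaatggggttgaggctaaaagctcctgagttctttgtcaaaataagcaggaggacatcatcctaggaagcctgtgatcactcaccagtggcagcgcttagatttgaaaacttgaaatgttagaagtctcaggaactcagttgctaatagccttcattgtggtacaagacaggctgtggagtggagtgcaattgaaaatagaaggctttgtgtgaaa

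The Sema3c window holds 75.7% G and C, 42 CpG and 3 GC boxes. The Sema3d window holds 49.7% and 8 CpG, and the Sema3a window 41.3% and 2 CpG. The Sema3c window begins shortly after the annotated gene start (17574566 against 17574281), and the start used for Sema3d lies before the annotated gene. The Sema3a window begins far inside its gene (13396534 against 13125414), so it belongs to an internal start. These windows thus differ in their place in the gene as well as in base composition. Over all 37 windows of the members the median was 63.7% G and C and 15 CpG, against 52.7% and 7 CpG over 32851 windows of all genes. The GC box was present in 27 of 37 member windows (73%) and 35.7% of all windows. The TATA box TATAAA was in 0 of 37 (13.6% of all), CACCTG in 13.5% (20.2%), CACGTG in 8.11% (7.15%) and the AP-1 site TGANTCA in 8.11% (7.81%), each counted on both strands, with no overlap between motifs removed. A match is a run of letters, not a measured binding site.

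At day 7, the stage labelled pre-cachexia, LLC and PBS fat were compared member by member. No semaphorin, plexin or neuropilin passed over all genes. The smallest p belonged to Sema7a, a lipid-anchored ligand of plexin C1 and of integrin beta 1 that is known from immune cells. Its level was 41.1, 35.1, 31.8 and 31.8 CPM in PBS libraries 1 to 4 and 43.4, 47.2, 54.1, 43.8 and 51.6 CPM in LLC libraries 1 to 5. Every LLC library lay above every PBS library, by a narrow margin between PBS library 1 and LLC library 1. The log2 fold change was 0.46 ± 0.10 (1.38-fold; edgeR quasi-likelihood test with Benjamini-Hochberg adjustment, adjusted p = 0.345). DESeq2 called it at an adjusted p of 0.0155, and the authors' deposited table gives it a log2 ratio of 0.50 and an FDR of 0.0322.

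In edgeR 0 of 30 members passed, where 1 of 13445 genes did, a higher one (0.00744%), and 0 of either kind passed in 1 fit of all libraries. At an unadjusted p under 0.05 there were 8 members beside 8.51% of all genes, 5 of them higher (4.86%) and 3 lower (3.64%). DESeq2 called 1 member, Sema7a, beside 0.595% of all genes (0.461% higher). The authors' deposited table also lists 1, beside 0.21% of its 21899 genes, to which no filter on low counts was applied here. The groups did not overlap for 3 members, all higher in LLC, beside 2.52% of all genes (1.2% higher). The median log2 fold change was -0.04 over the 30 members and 0.00 over all genes tested, with 13 members above 0 (51.1% of all genes) and 17 below.

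After Sema7a, the higher side was led by Sema6b, a membrane ligand of plexin A4. Sema6b measured 23.0, 23.5, 22.6 and 21.4 CPM in PBS and 25.7, 27.1, 33.7, 24.7 and 29.6 CPM in LLC, without overlap, a log2 fold change of 0.32 ± 0.10 (edgeR adjusted p = 0.408). Sema3f, a secreted ligand that prefers neuropilin 2, measured 14.9, 14.8, 13.1 and 13.7 CPM in PBS and 16.5, 15.3, 16.6, 15.9 and 27.0 CPM in LLC. These groups did not overlap either, and LLC library 5 stood well above the other 4, which lay just over PBS. Its log2 fold change was 0.37 ± 0.17 (edgeR adjusted p = 0.584) and 0.19 without that library. LLC library 5 is the one with low progenitor markers. Its sum of 6 mammary epithelium markers was 23.1 CPM, against 2.10 to 4.52 CPM in the other day 7 libraries. The part of these markers in the result was not tested. Sema3g, a class 3 ligand known from endothelium, differed by 0.30 ± 0.10 (edgeR adjusted p = 0.447), and the receptor Nrp2 by 0.23 ± 0.09 (edgeR adjusted p = 0.56), both with overlapping groups.

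On the lower side stood Sema3a, the ligand that repels sensory and sympathetic axons through neuropilin 1. Sema3a measured 3.73, 4.96, 3.70 and 2.69 CPM in PBS and 2.97, 2.74, 2.65, 2.50 and 1.40 CPM in LLC, where PBS library 4 overlapped LLC libraries 1 and 2. Its log2 fold change was -0.61 ± 0.24 (edgeR adjusted p = 0.555). Sema3d measured 15.8, 15.8, 13.2 and 16.4 CPM in PBS and 11.1, 9.36, 13.2, 12.7 and 3.78 CPM in LLC, with LLC library 5 the lowest and LLC library 3 at the level of PBS library 3, and differed by -0.60 ± 0.27 (edgeR adjusted p = 0.585). The receptor Plxna1 differed by -0.20 ± 0.09, the membrane ligand Sema6c by -0.46 ± 0.22 and Sema5a by -0.20 ± 0.10 (edgeR adjusted p = 0.578, 0.618 and 0.64). None of these lower values passed in any tool run.

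At day 21, in cachexia, Sema3f rose in LLC fat. Sema3f measured 11.3, 8.16, 11.7 and 17.5 CPM in PBS libraries 1 to 4 and 35.3, 30.1, 33.6, 36.7 and 35.2 CPM in LLC libraries 1 to 5. The 5 LLC libraries lay close together, and the lowest of them stood well above the highest PBS library, library 4. Group means were 12.2 ± 3.88 and 34.2 ± 2.50 CPM, a log2 fold change of 1.47 ± 0.20, or 2.77-fold (edgeR adjusted p = 0.0443). DESeq2 gave an adjusted p of 8.03e-09 and 1 fit of all 18 libraries 0.000737, and the authors' deposited table gives an FDR of 3.53e-08.

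The Sema3f call in edgeR held without PBS library 4 (log2 1.70, adjusted p = 0.000839) and without LLC library 2 (adjusted p = 0.0465). It was lost without PBS library 1 (0.192), 2 (0.0848) or 3 (0.175) and without LLC library 1 (0.0511), 3 (0.0977), 4 (0.103) or 5 (0.0783). The log2 fold change stayed between 1.32 and 1.70 over these fits.

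**Figure D2:**
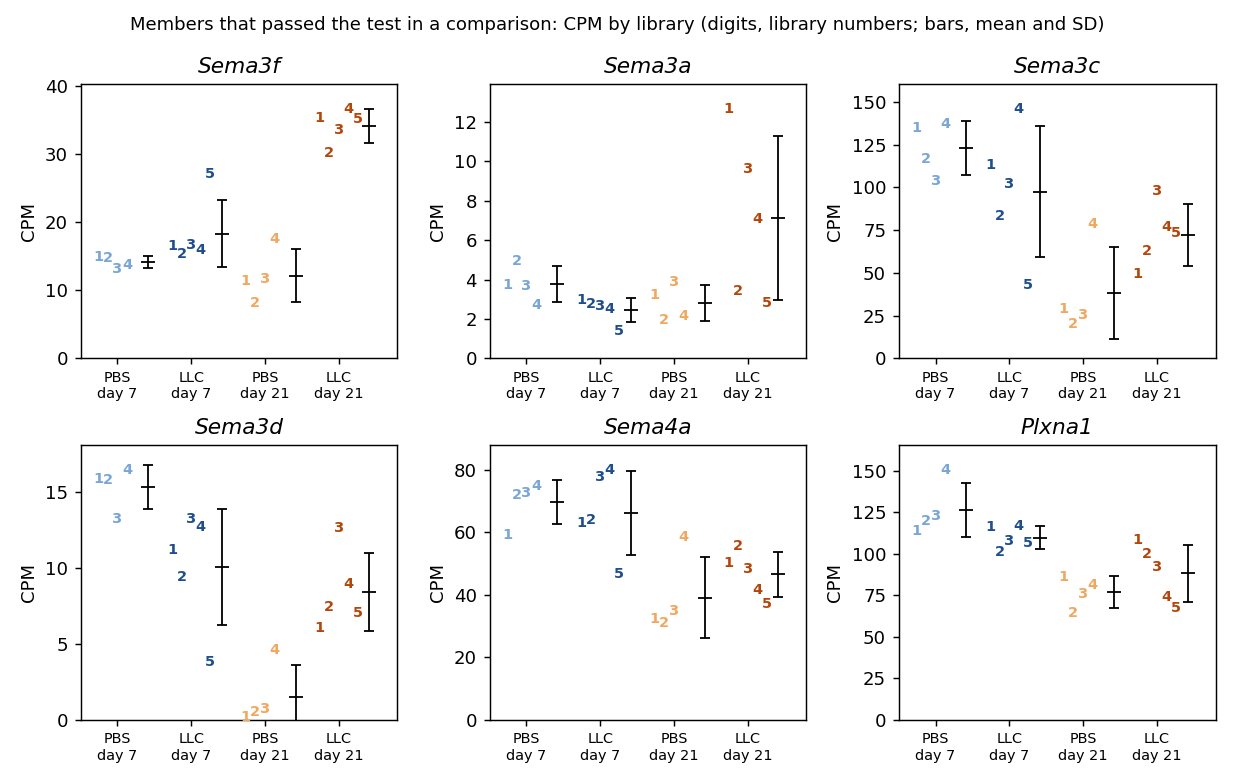
CPM, by group, of the 6 members that passed edgeR's test with all libraries, in the 9-library fit of a day or the 18-library fit between days. Each digit is 1 library at its value, labelled with its number, and the bar beside it is the group mean with 1 SD, cut off at 0 for Sema3d; the 5 day 21 LLC libraries of Sema3f sit between 30.1 and 36.7 CPM, above every other library.

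Sema3f was the 1 member of 30 that passed, where 12 of 13564 genes did (0.0885%; 0.0664% higher and 0.0221% lower). At an unadjusted p under 0.05 there were 12 members, 10 higher and 2 lower, beside 23.3% of all genes (11.9% higher, 11.5% lower). The groups did not overlap for 4 members higher in LLC (Sema3f, Sema5a, Sema3d and Sema6b) and 1 lower (Sema4g), beside 5.21% and 4.42% of all genes (9.63% together). The median log2 fold change was 0.32 over the members and 0.02 over all genes, with 17 members above 0 (51.9% of all genes) and 13 below. DESeq2 called 4 members, all higher (Sema3d, Sema3f, Sema3g and Sema5a), beside 11.5% of all genes (5.9% higher). The fit of all 18 libraries called 10, 9 higher (Plxna4, Sema3a, Sema3d, Sema3e, Sema3f, Sema3g, Sema5a, Sema6b and Sema7a) and 1 lower (Sema4g), beside 19% of all genes (10.5% higher, 8.54% lower). The authors' deposited table lists 5 members under an FDR of 0.05 (Sema3d, Sema3f, Sema3g, Sema5a and Sema6b), beside 5.29% of its genes. That share is over 21899 genes without the filter on low counts, so it is not on the scale of the shares above.

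Of the other class 3 ligands, Sema3g measured 35.0, 30.3, 32.6 and 47.7 CPM in PBS and 45.8, 77.0, 54.3, 59.3 and 75.6 CPM in LLC. PBS library 4 overlapped LLC library 1, and the log2 fold change was 0.76 ± 0.19 (edgeR adjusted p = 0.085). Sema3d, which binds neuropilin 1, measured 0.181, 0.502, 0.715 and 4.60 CPM in PBS, from 3, 8, 11 and 75 counts, and 6.04, 7.40, 12.6, 8.91 and 7.01 CPM in LLC. PBS libraries 1 to 3 were close to 0 and PBS library 4 was just below the lowest LLC library. The log2 fold change was 2.46 ± 0.79 (edgeR adjusted p = 0.12, DESeq2 adjusted p = 0.0149).

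Sema3e, the ligand that binds plexin D1 without a neuropilin, measured 0.0604, 1.19, 0.585 and 11.7 CPM in PBS, from 1, 19, 9 and 191 counts, and 10.2, 12.8, 21.1, 37.0 and 24.8 CPM in LLC. PBS library 4 overlapped LLC library 1, and the other 3 PBS libraries were far below every LLC library. The log2 fold change of Sema3e was 2.61 ± 1.04 (edgeR adjusted p = 0.177). Sema3c measured 29.2, 19.8, 25.4 and 78.5 CPM in PBS and 49.5, 63.0, 97.8, 77.0 and 73.4 CPM in LLC, a difference of 0.89 ± 0.39 (edgeR adjusted p = 0.21), where PBS library 4 lay above 4 of the 5 LLC libraries. Sema3a measured 3.20, 1.95, 3.90 and 2.15 CPM in PBS and 12.7, 3.44, 9.60, 7.08 and 2.80 CPM in LLC, with LLC libraries 2 and 5 inside the PBS range, a difference of 1.33 ± 0.47 (edgeR adjusted p = 0.144). Sema3b had a negative value, at 25.5, 46.7, 25.2 and 48.4 CPM in PBS and 27.6, 33.2, 27.3, 21.9 and 26.7 CPM in LLC, a difference of -0.44 ± 0.23 (edgeR adjusted p = 0.273) with overlapping groups.

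The low PBS libraries for Sema3c, Sema3d and Sema3e are libraries 1 to 3, which also held the low macrophage, lymphatic and progenitor sums given above, and PBS library 4 was high in all of them. Macrophage markers summed to 1023 to 3556 CPM and lymphatic markers to 132 to 251 CPM in the day 21 LLC libraries. In LLC against PBS at day 21, all 11 macrophage markers had positive log2 fold changes (median 0.96), 0 passed in edgeR and 1 in DESeq2. Of the 6 lymphatic markers 5 were positive and 1 negative (median 2.85), 1 passed in edgeR, higher in LLC, and 4 in DESeq2. Progenitor markers summed to 13221 CPM in LLC library 1 and to 3322 to 5609 CPM in the other LLC libraries. PBS libraries 1 to 3 held 2599 to 4009 CPM of them. Of these 13 markers 8 had positive and 5 negative log2 fold changes (median 0.98), 0 passed in edgeR and 2 in DESeq2. Their sum includes Col1a1 and Col3a1, which reached 4302 and 8749 CPM. The sum of 10 endothelial markers was 711 to 998 CPM in day 21 PBS and 953 to 1563 CPM in day 21 LLC, where 8 of the 10 had positive log2 fold changes, 0 passed in edgeR and 5 passed in DESeq2. The sum of 8 Schwann cell markers was 593 to 1143 CPM in PBS and 272 to 588 CPM in LLC, without overlap, with 7 of the 8 negative, 0 passed in edgeR and 2 in DESeq2. At an unadjusted p under 0.05 in edgeR there were 5 endothelial and 3 Schwann cell markers, and no marker of either list was at 0 in any library. Of the 12 mature adipocyte markers 10 had negative and 2 positive log2 fold changes (median -0.25), 0 passed in edgeR and 4 in DESeq2. The part of these cell types in the day 21 differences of the members, Sema3f included, was not tested. Without PBS library 4, edgeR called 7 members, all higher in LLC: Plxnb2, Sema3c, Sema3d, Sema3e, Sema3f, Sema3g and Sema7a. That fit called 1277 genes in all. The same 7 were called when LLC libraries 1 and 3 were left out as well, with 962 genes.

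Among the membrane-bound semaphorins, Sema5a measured 27.4, 34.3, 26.1 and 33.3 CPM in PBS and 39.5, 43.0, 44.6, 37.0 and 41.7 CPM in LLC, each LLC library above each PBS library. Its log2 fold change was 0.42 ± 0.12 (edgeR adjusted p = 0.0986, DESeq2 adjusted p = 0.0167). Sema6b measured 19.7, 22.5, 28.2 and 30.6 CPM in PBS and 36.1, 32.5, 30.9, 34.6 and 37.3 CPM in LLC, with PBS library 4 just under LLC library 3, and differed by 0.42 ± 0.14 (edgeR adjusted p = 0.135). Sema7a measured 25.6, 28.1, 27.3 and 51.2 CPM in PBS and 53.1, 73.2, 45.9, 39.0 and 58.0 CPM in LLC, a difference of 0.68 ± 0.25 (edgeR adjusted p = 0.153), and PBS library 4 lay inside the LLC range.

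On the lower side, Sema4g, a low-abundance member, measured 3.14, 5.90, 2.54 and 2.45 CPM in PBS and 1.67, 2.10, 1.93, 1.14 and 2.20 CPM in LLC without overlap, and differed by -0.97 ± 0.34 (edgeR adjusted p = 0.141). Plxnb3, a receptor of Sema5a, differed by -0.93 ± 0.38 and Plxnb1, the receptor of Sema4d, by -0.51 ± 0.33 (edgeR adjusted p = 0.188 and 0.365). Sema6c differed by -0.53 ± 0.25 (edgeR adjusted p = 0.224). Only Sema4g among these 4 lacked overlap between the groups.

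Sema4d, a ligand of immune cells that binds plexin B1 and CD72, had 1 library far above the rest. Its level was 5.07, 4.27, 2.80 and 8.15 CPM in PBS and 8.50, 8.92, 80.3, 3.41 and 3.00 CPM in LLC, where LLC library 3 alone was high. That is also the library with 1416 CPM of B cell and 87.2 CPM of T cell markers, and their part in the value was not tested. The log2 fold change of 2.02 ± 1.00 did not pass (edgeR adjusted p = 0.249). Plxnc1, the plexin of Sema7a, was also highest in that library, at 2.54, 2.70, 3.84 and 9.19 CPM in PBS and 15.7, 8.86, 30.7, 2.59 and 3.94 CPM in LLC (1.42 ± 0.73, edgeR adjusted p = 0.267).

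Among the receptors, no neuropilin or plexin passed in the 9-library edgeR fit or in DESeq2, and Plxna4 passed in the fit of all 18 libraries. Nrp1 measured 138, 128, 156 and 146 CPM in PBS and 152, 142, 113, 112 and 149 CPM in LLC, a difference of -0.11 ± 0.13. Nrp2, the neuropilin preferred by Sema3f, measured 39.1, 40.0, 65.5 and 75.5 CPM in PBS and 136, 83.2, 78.1, 52.8 and 57.5 CPM in LLC, a difference of 0.55 ± 0.31 in which LLC library 1 was the highest. Plxnd1 differed by -0.29 ± 0.27, Plxna1 by 0.18 ± 0.16 and Plxna2 by -0.19 ± 0.18, and none of these 5 receptors passed (edgeR adjusted p of 0.311 or more). Plxnb2, a receptor of class 4 ligands that macrophages also express, measured 25.8, 29.1, 20.7 and 93.5 CPM in PBS and 159, 83.1, 94.1, 56.3 and 58.6 CPM in LLC. PBS library 4 was the high one of its group there too, and the difference was 1.07 ± 0.49 (edgeR adjusted p = 0.225). Plxna4 differed by 0.68 ± 0.29 (edgeR adjusted p = 0.198) and Plxna3 by -0.29 ± 0.47. The membrane ligands not yet described had log2 fold changes of 0.73 ± 0.54 (Sema5b), 0.23 ± 0.21 (Sema4a), -0.05 ± 0.25 (Sema4b), -0.06 ± 0.16 (Sema6a), -0.07 ± 0.16 (Sema6d) and -0.08 ± 0.18 (Sema4c).

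**Figure D3:**
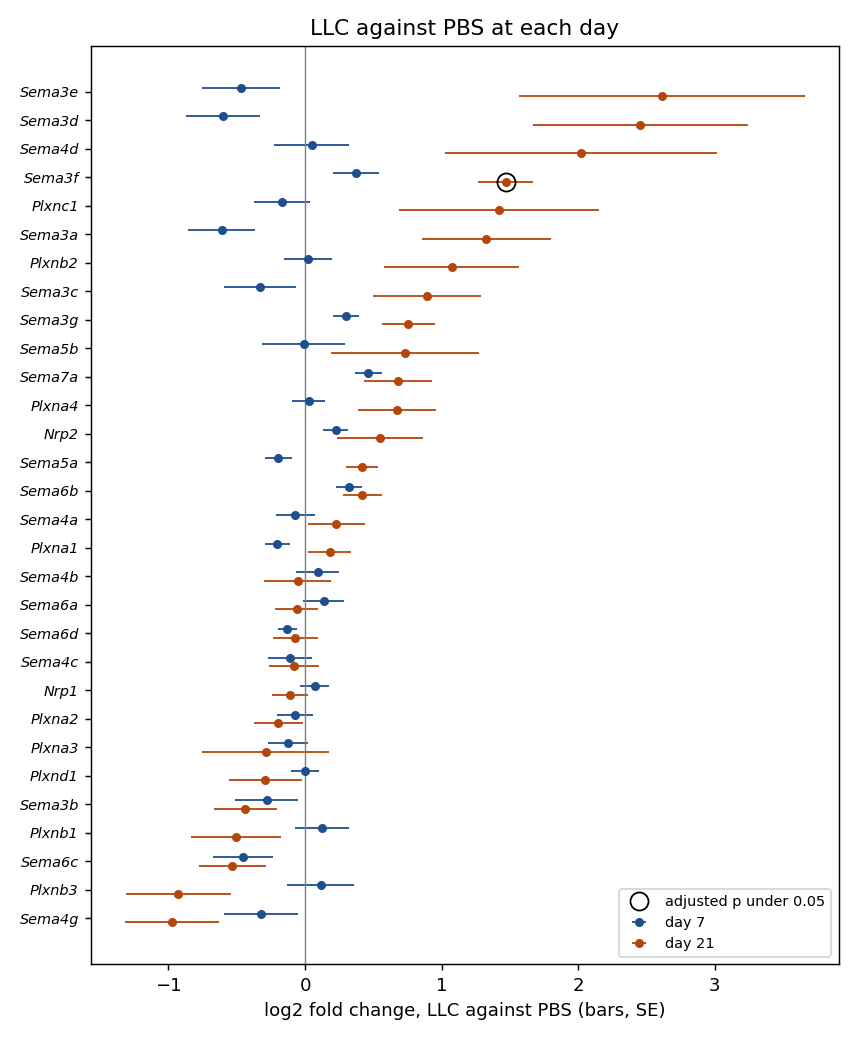
Log2 fold change of LLC against PBS for the 30 members tested at each day, from the within-day fits, with bars of 1 SE. Day 7 values lie between -0.61 and 0.46, and at day 21 Sema3f, circled, is the member past the threshold, while Sema3e, Sema3d and Sema4d have larger values with wide bars.

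The makeup of the secreted ligands was read from their shares of summed TPM. Class 3 semaphorins summed to 122 ± 17.9 TPM in day 7 PBS, 109 ± 20.9 TPM in day 7 LLC, 57.5 ± 23.7 TPM in day 21 PBS and 102 ± 18.8 TPM in day 21 LLC. Sema3f held 8.99% ± 0.364 of that sum in day 7 PBS, 12.2% ± 6.06 in day 7 LLC, 12.9% ± 2.85 in day 21 PBS and 22.3% ± 3.00 in day 21 LLC. In day 21 LLC its share ran from 19.5% to 26.9%, above each day 21 PBS library (9.06% to 15.8%). Sema3b held 39.3% ± 10.1 in day 21 PBS and 17.8% ± 3.59 in day 21 LLC, again without overlap but in the other direction. Sema3c held 36.1% ± 1.29 in day 7 PBS and 19.4% ± 6.42 in day 21 PBS. Shares are fractions of 1 sum, so a higher share of 1 ligand lowers the others, and no test was made on them.

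**Figure D4:**
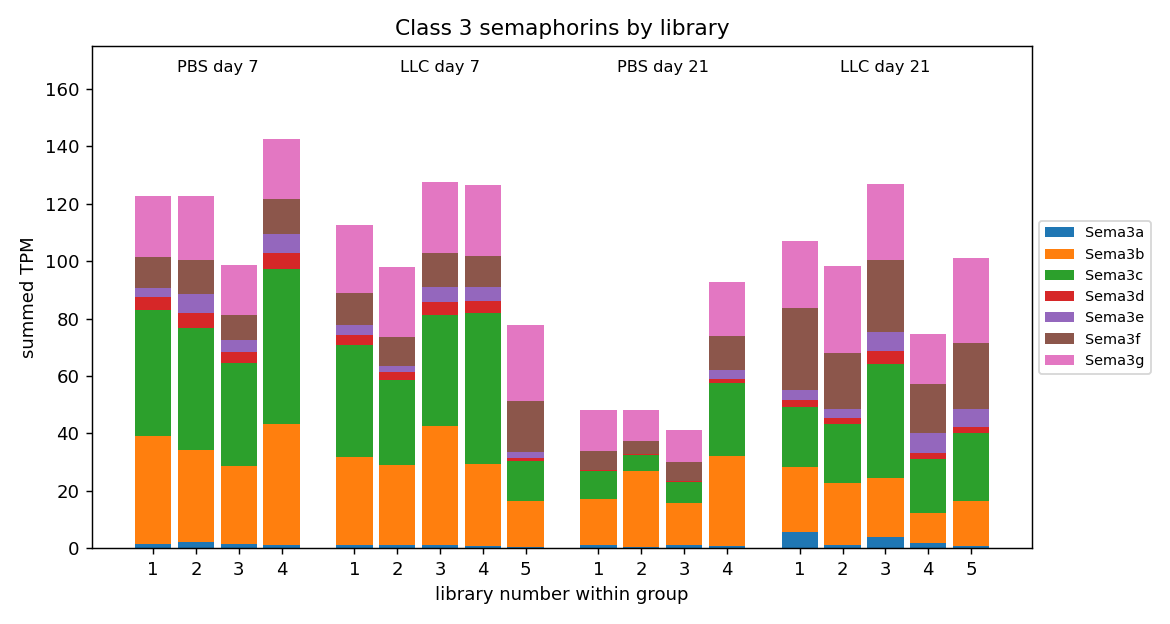
Summed TPM of the 7 class 3 semaphorins in each of the 18 libraries, stacked by gene. Day 21 PBS libraries 1 to 3 have the lowest stacks, with thin Sema3c and hardly visible Sema3d and Sema3e, and the Sema3f layer is a larger part of the stack in day 21 LLC than in day 21 PBS.

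Control fat also differed between day 7 and day 21. The days are separate sets of samples, so time, age at collection and any difference in handling or sequencing cannot be told apart. This holds for the comparisons of days within PBS and within LLC. Within PBS, 4 members were lower at day 21 and none was higher: the secreted ligands Sema3d and Sema3c, the membrane ligand Sema4a and the receptor Plxna1. Over all genes 449 of 13975 passed (3.21%), 352 of them lower (2.52%) and 97 higher (0.694%). At an unadjusted p under 0.05 there were 9 members beside 20.4% of all genes, 8 lower (10.9%) and 1 higher (9.47%). The median log2 difference, day 21 minus day 7, was -0.27 over 31 members and 0.01 over all genes, with 23 members below 0 and 8 above (50.9% of all genes). These values use the same day 21 PBS libraries as the comparison of LLC with PBS at that day, so both sets share them.

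Sema3d measured 15.8, 15.8, 13.2 and 16.4 CPM in day 7 PBS and, as given above, 0.181 to 4.60 CPM in day 21 PBS, with no overlap. Its log2 difference was -3.34 ± 0.64 (edgeR adjusted p = 0.0141). Sema3c measured 135, 116, 104 and 137 CPM in day 7 PBS and 19.8 to 78.5 CPM in day 21 PBS, a difference of -1.68 ± 0.39 (edgeR adjusted p = 0.0304). Here too each day 21 library was below each day 7 library, and library 4 was the closest.

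Sema4a (ENSMUSG00000028064, chr3:88435959-88461182, minus strand), a membrane ligand known from T cell and dendritic cell contacts, measured 59.1, 71.9, 72.7 and 74.9 CPM in day 7 PBS and 32.1, 30.9, 34.8 and 58.4 CPM in day 21 PBS. Library 4 of day 21 came within 1 CPM of library 1 of day 7, without overlap, and the difference was -0.83 ± 0.20 (edgeR adjusted p = 0.0345). Plxna1 (ENSMUSG00000030084, chr6:89316314-89362620, minus strand), a signalling receptor for class 3 ligands and for Sema6d, measured 113, 119.5, 122 and 150.3 CPM in day 7 PBS and 86.1, 64.1, 75.8 and 81.2 CPM in day 21 PBS. Its difference of -0.72 ± 0.14 passed (edgeR adjusted p = 0.0151), and library 4 was not apart from the others for this gene. Reads of Plxna1 may be shared with Gm26811, an antisense gene that overlaps its exons, since the library kit names no strand-marking step. The same holds for Plxna4 with Plxna4os3, Plxnb1 with Gm7628 and Sema4c with D430040D24Rik, which overlap on the opposite strand.

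The groups did not overlap for 8 members, all lower at day 21, beside 16.3% of all genes (8.45% lower). Besides the 4 that passed, these were Sema3e, Sema5b, Sema6d and Plxnd1. Sema3e measured 12.4, 23.3, 14.8 and 20.5 CPM in day 7 PBS and 0.0604 to 11.7 CPM in day 21 PBS, a difference of -2.38 ± 0.81 that did not pass (edgeR adjusted p = 0.113). On the higher side no member passed; the smallest p values were those of Sema6a (0.37 ± 0.17), Sema4f (1.42 ± 0.85), Sema6c (0.35 ± 0.25), Sema6b (0.16 ± 0.13) and Sema4g (0.22 ± 0.33), with edgeR adjusted p of 0.223 or more. DESeq2 called the same 4 lower members, beside 7.94% of all genes (4.98% lower).

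Macrophage, lymphatic and progenitor sums were below every day 7 PBS library in day 21 PBS libraries 1 to 3, and within or near the day 7 range in library 4, and their part in these differences was not tested. Without day 21 PBS library 4, edgeR called 7 members lower (Plxnb2, Sema3e and Sema3g in addition) of 1692 genes, and Sema3d had a log2 difference of -5.02. Without library 2 or 3 of day 21, no member passed (41 and 83 genes called), with edgeR adjusted p for Sema3d of 0.0696 and 0.0563. Without day 21 library 1 or without 1 of the day 7 PBS libraries, 1 or 2 members passed. They were Sema3d in each of these 5 fits and Plxna1 in all but the one without day 7 library 4. Over all genes, 93 passed without day 21 library 1, and 156, 81, 183 and 65 without day 7 libraries 1 to 4. Sema3c and Sema4a passed in none of these 7 fits, with edgeR adjusted p of 0.0508 to 0.119 for Sema3c and 0.0524 to 0.139 for Sema4a.

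Within LLC fat, Sema3f and Sema3a were higher at day 21 than at day 7. For Sema3f, the values given above do not overlap, from at most 27.0 CPM at day 7 to at least 30.1 CPM at day 21. The log2 difference was 0.91 ± 0.18 (edgeR adjusted p = 0.0222). Sema3a measured 1.40 to 2.97 CPM at day 7 and 2.80 to 12.7 CPM at day 21, where the 3 high libraries were 1, 3 and 4 and library 5 overlapped the day 7 values. Its log2 difference was 1.54 ± 0.37 (edgeR adjusted p = 0.0453).

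These were 2 of 31 members, where 248 of 13975 genes passed (1.77%), 118 of them higher (0.844%) and 130 lower (0.93%). At an unadjusted p under 0.05 there were 10 members beside 18.6% of all genes, 4 higher (10.9%) and 6 lower (7.71%). The groups did not overlap for 2 members, Sema3f and Sema5a, both higher, beside 3.34% of all genes (1.68% higher). The median log2 difference was -0.05 over the members and 0.05 over all genes, with 14 members above 0 (57.8% of all genes) and 17 below. Sema5a measured 35.8, 30.3, 33.3, 28.4 and 29.6 CPM at day 7 and 37.0 to 44.6 CPM at day 21, a difference of 0.39 ± 0.10 that did not pass in edgeR (adjusted p = 0.0625) and did in DESeq2 (adjusted p = 0.0142). Sema6b (0.29 ± 0.11) and Sema4d (1.29 ± 0.70) followed, with edgeR adjusted p of 0.185 and 0.342. On the lower side Plxnd1, the receptor of Sema3e, measured 198, 143, 186, 163 and 152 CPM at day 7 and 159, 141, 111, 60.9 and 74.7 CPM at day 21, with LLC libraries 4 and 5 of day 21 lowest. Its difference of -0.62 ± 0.20 did not pass in edgeR (adjusted p = 0.117) and did in DESeq2 (adjusted p = 0.0476). Sema4a (-0.51 ± 0.18), Plxnb3 (-0.84 ± 0.31), Plxna1 (-0.31 ± 0.12) and Sema3b (-0.59 ± 0.24) had edgeR adjusted p of 0.139 to 0.194. DESeq2 called 4 members beside 5.82% of all genes, 3 higher (3.04%) and 1 lower (2.78%).

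The count within LLC depended on single libraries. It was 0 without day 7 LLC library 1, 2, 3 or 4 (20, 15, 52 and 72 genes called), where Sema3f had edgeR adjusted p of 0.0579 to 0.0719. It was 1, Sema3f, without day 7 library 5 or day 21 library 3 or 4 (174, 94 and 74 genes called). It was 5 without day 21 library 1, the library rich in progenitor markers, with 1036 genes called. Sema3a had a log2 difference of 0.86 without day 21 libraries 1 and 3 (edgeR adjusted p = 0.114). Library 1 of day 21 held 13221 CPM of progenitor markers and library 3 the B cell markers, and their part in the Sema3a values was not tested.

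Whether the LLC effect differed between the days was tested as the difference of both log2 fold changes in the fit of all 18 libraries. In edgeR 0 of 31 members passed, where 58 of 13975 genes did (0.415%; 0.265% higher and 0.15% lower). At an unadjusted p under 0.05 there were 10 members, 9 with a higher LLC effect at day 21 and 1 with a lower one, beside 18.2% of all genes (10.2% higher, 7.93% lower). DESeq2 called 4, all higher (Sema3a, Sema3d, Sema3f and Sema5a), beside 5.17% of all genes (2.71% higher). The median was 0.24 over the members and 0.05 over all genes, with 19 members above 0 (55.1% of all genes) and 12 below.

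The smallest p belonged to Sema3f, with a difference of 1.12 ± 0.26 between the days, and Sema5a, with 0.64 ± 0.15 (edgeR adjusted p = 0.0641 for both). Sema5a was below PBS at day 7 (-0.20 ± 0.10) and above it at day 21 (0.42 ± 0.12). Sema3d, Sema3a and Sema3e likewise had negative fold changes at day 7 and positive ones at day 21. Their differences were 3.09 ± 0.80, 1.97 ± 0.55 and 3.11 ± 1.05 (edgeR adjusted p = 0.0807, 0.0904 and 0.138). In PBS, Sema3d ran from 13.2 to 16.4 CPM at day 7 and from 0.181 to 4.60 CPM at day 21. Sema3e ran there from 12.4 to 23.3 CPM and from 0.0604 to 11.7 CPM, so PBS was lower at day 21 without overlap for both. In LLC the days overlapped, at 3.78 to 13.2 and 6.04 to 12.6 CPM for Sema3d. For Sema3e they were 7.37 to 17.8 and 10.2 to 37.0 CPM. On the lower side Plxnb3 had -1.02 ± 0.47, Plxnb1 -0.61 ± 0.39, Sema4g -0.62 ± 0.45, Sema4f -1.26 ± 1.14 and Nrp1 -0.16 ± 0.17 (edgeR adjusted p of 0.258 or more). Without day 21 PBS library 4, 6 members passed, all higher (Plxnb2, Sema3c, Sema3d, Sema3e, Sema3f and Sema5a), among 1222 genes. Without day 7 LLC library 5 Sema3f passed, and without day 21 LLC library 2 Sema3f and Sema3a did (20 and 369 genes called).

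A further 57 genes of the pathway were followed in the same fits: 16 co-receptors and other partners, 5 VEGF ligands and 36 genes of signalling inside the cell. In LLC against PBS at day 7, 0 of 53 tested passed in edgeR, 6 had an unadjusted p under 0.05 and 0 passed in DESeq2. Over all genes these shares were 0.00744%, 8.51% and 0.595%. At day 21, 0 of 54 passed in edgeR, 12 had an unadjusted p under 0.05 and 5 passed in DESeq2. The shares of all genes were 0.0885%, 23.3% and 11.5%. At day 7 the smallest p were those of Pgf, placental growth factor (1.02 ± 0.29, edgeR adjusted p = 0.401), and Flt1, a VEGF receptor (0.25 ± 0.09, edgeR adjusted p = 0.488). At day 21 they were those of Cdk5, a kinase that acts in Sema3a signalling (-0.48 ± 0.10, edgeR adjusted p = 0.0638), and Rras, a small GTPase that plexins switch off (-0.52 ± 0.14, edgeR adjusted p = 0.0946).

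Within PBS, 1 of the 54 tested was higher at day 21, Cdk5 (0.40 ± 0.09, edgeR adjusted p = 0.0321), beside 0.694% of all genes. In the other direction 1 was lower, the kinase Fyn (-1.07 ± 0.26, edgeR adjusted p = 0.0392), beside 2.52%. Within LLC 0 of 54 passed in edgeR (11 at an unadjusted p under 0.05, 2 in DESeq2), beside 1.77%, 18.6% and 5.82% of all genes. The smallest p were those of the adhesion molecule Nrcam (-1.38 ± 0.44) and Cdk5 (-0.26 ± 0.08), both with edgeR adjusted p = 0.111. For the difference of the LLC effect between days 1 passed, Cdk5 (-0.67 ± 0.13, edgeR adjusted p = 0.0382), beside 0.415% of all genes. Median log2 values of the lists at day 21 were 0.22 for the co-receptors, 0.06 for the VEGF ligands and 0.02 for signalling inside the cell, beside 0.02 for all genes. At day 7 they were 0.03, 0.04 and -0.01, beside 0.00.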

How the data were processed

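Poly(A) RNA from 18 inguinal fat samples went into NEBNext Ultra libraries, per the labels' protocols. The submitters' processing notes list fastp 0.23.0, RSEM with no version, mm10 and GRCm38. The sources used here do not give the aligner, annotation release or comparison tool. The authors deposited counts, taken here as RSEM expected counts that they rounded (all 100% are whole, and a TPM above 0 stands beside a 0 count in 176 entries). Deposited TPM, scaled by the authors for length and total, served for levels between genes and for limma. The authors' deposited log2 ratios, p-values and FDR were only quoted.

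Counts were tested with edgeR 4.0.16 in R 4.3.3 (TMM, filterByExpr, estimateDisp, default quasi-likelihood fit, two-sided, Benjamini-Hochberg over all genes tested, threshold 0.05). LLC against PBS used the 9 libraries of a day, and comparisons of days 1 fit of all 18 with 4 group means. SE is |log2 fold change| over the root of F. Scripts were tested on simulated data. Alternatives were DESeq2 1.42.0, its size factors, other filters and fit settings, limma 3.58.1 on log2(TPM + 1) and log2(TPM + 0.1), a replicate block, a skeletal muscle covariate and leaving out libraries. Samples of a group differed by more than sampling noise (chi-square per gene at least 15.2 over 32 pairs). At day 7, deviations of same-numbered PBS and LLC libraries from their group means correlated at 0.211, 0.121, 0.538 and 0.191. The LLC library that correlated best with PBS libraries 1 to 4 was 1, 1, 3 and 2. Libraries 3 of that day held 7722 CPM (PBS) and 1802 CPM (LLC) of skeletal muscle markers, whose part was not tested. The numbers were treated as pairs of a day in the block, from the data and not from the labels. Between days within PBS or LLC, the block joined equal numbers of all 4 groups, a tie across days that was not examined. Gene positions are 1-based, from GENCODE on GRCm38.

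Named were all members past the threshold, or up to 5 per direction with the smallest p; pathway genes past it, or the 2 with the smallest p; and members with single libraries apart, chosen after their values were seen. Otop1, the gene of the series title, was named too: its log2 fold change was 1.14 at day 7 and -2.66 at day 21 (edgeR adjusted p = 0.325 and 0.099). The members, lists and tests were chosen with earlier results of these data known, and the promoters and motifs after the values were seen.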

Additional observations from a re-analysis of the deposited data

Results flagged for a closer look

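In each of the 124 combinations of a member and a group, the highest or lowest library was set against the others with Dixon's 95% critical value for its number of libraries, and 12 stood out. Chance alone marks about 1 in 20 groups, and the members' values in 1 library come from the same RNA, so marks in 1 library are not independent. The same count was not made over all genes, so 12 of 124 cannot be read as a trait of these members. Of the 12, 7 were the highest value of day 21 PBS library 4, the library with macrophage, lymphatic and progenitor markers at day 7 levels. It had 93.5 CPM of Plxnb2, against 20.7 to 29.1 CPM in the other 3, and 78.5 CPM of Sema3c, against 19.8 to 29.2 CPM. Sema3d stood there at 4.60 CPM, against 0.181 to 0.715 CPM, and Sema3e at 11.7 CPM, against 0.0604 to 1.19 CPM. Sema4a had 58.4 CPM, against 30.9 to 34.8 CPM, and Sema7a 51.2 CPM, against 25.6 to 28.1 CPM. The low-abundance Sema4f was at 2.76 CPM, against 0.362 to 0.502 CPM.

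In day 21 LLC library 3, which holds the B and T cell markers, Sema4d was 80.3 CPM, against 3.00 to 8.92 CPM in the other 4 libraries, and Sema4b 42.8 CPM, against 19.6 to 25.3 CPM. In day 7 LLC library 5, which has low progenitor markers and the highest mammary epithelium sum of that day, Sema3f was 27.0 CPM, against 15.3 to 16.6 CPM. Sema4f also stood out at 0.818 CPM in day 7 PBS library 4, against 0.196 to 0.246 CPM, and at 0 CPM in day 7 LLC library 3, against 0.484 to 0.681 CPM, values that rest on 0 to 14 counts. The part of the cell markers in these values was not tested.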

How the results depend on the processing

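Counts of members past the threshold moved by more than 1.5 times under these alternatives, and no called member changed direction in any. DESeq2 called 1 at day 7 (0 in edgeR), 4 at day 21 (1), 4 within LLC (2) and 4 for the difference between days (0). The fit of all 18 libraries called 10 at day 21. Without PBS library 4 and LLC libraries 1 and 3 of day 21 the count was 7 at day 21 and 7 for the difference. Those fits called 962 and 1190 genes in all. Without PBS library 4 it was 7 within PBS (1692 genes), and without LLC libraries 1 and 3 it was 4 within LLC (1188 genes). Within LLC, no filter gave 1 (139 genes called) and limma 0 on both TPM scales (27 and 24 genes). Leaving out 1 library at a time gave 0 to 0 at day 7, 0 to 7 at day 21, 0 to 7 within PBS, 0 to 5 within LLC and 0 to 6 for the difference. The genes called in all moved too, over 0 to 3, 0 to 1277, 41 to 1692, 15 to 1036 and 6 to 1222 in the same order. In pathway genes DESeq2 called 5 at day 21, 4 within PBS, 2 within LLC and 2 for the difference. Over all genes it called 11.5%, 7.94%, 5.82% and 5.17%. The 18-library fit called 9 pathway genes at day 21, beside 19% of all genes.

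The replicate block leaves out LLC library 5 of each day. With the block the count was 0 at day 21, 1 within LLC and 1 for the difference (2, 80 and 75 genes called in all). Without library 5 and without a block it was 0, 1 and 1 (9, 64 and 35 genes). The block itself thus moved none of these member counts. Within PBS the block gave 5 (485 genes), with Sema3e added, against 4 without library 5 and without a block (505 genes). The blocks within PBS and within LLC joined equal numbers across days, a tie that the labels do not give. At day 7 it gave 0, as without it. At day 21 same-numbered libraries correlated at -0.273, 0.307, 0.0928 and -0.157, and the labels do not tie them together.

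The planned legacy setting proved to be the installed default; its opposite, added after seeing the data, changed no count of members. Groups of 4 and 5 libraries, several of them apart in cell markers, limit what can be called. Counts of a few reads, as for Sema4f, Sema5b and Sema3d in day 21 PBS libraries 1 to 3, carry large counting error.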
